A study of Mus musculus with 38 samples.

Results

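A set of 10 genes that mark or drive the epithelial to mesenchymal transition (EMT) were followed through bulk RNA-seq of mouse lung adenocarcinoma organoids, which are tumour cells from a digested tumour grown as clusters in Matrigel, each line from 1 mouse tumour. The 10 genes were taken by symbol from a fixed list (Cdh1, Epcam, Cdh2, Vim, Fn1, Zeb1, Zeb2, Snai1, Snai2 and Twist1), out of 55406 gene IDs shared by the 3 count tables, and all 10 were listed in all 38 libraries. On GRCm38 the 4 most abundant lie at chr8:106603351-106670246 (Cdh1, plus strand), chr17:87635979-87651129 (Epcam, plus), chr1:71585520-71653200 (Fn1, minus) and chr2:13573927-13582826 (Vim, plus). Every organoid line came from a tumour carrying p53frt and Rosa-FSF-CreERT2 on a mixed 129/B6 background, so the p53frt allele and a tamoxifen-activated Cre were shared by all groups. Cultures were given 2 uM 4-OHT (4-hydroxytamoxifen, which activates the Cre) or ethanol vehicle for 72 h. Double-floxed organoids (Foxa1flox and Foxa2flox) gave 5 libraries with 4-OHT and 5 with vehicle from 3 lines. Line 1027B supplied replicates 1 and 4 of each treatment, line 1027D replicates 2 and 5, and line 1292B the remaining one. There were 6 Foxa1-floxed libraries with 4-OHT and 6 with vehicle, from lines 1552A, 1552B and 1552C, and 4 Foxa2-floxed libraries with 4-OHT and 4 with vehicle, from lines 1267B and 1526C. A hairpin experiment in 1 double-floxed line, 1027B, had 2 libraries in each of 4 groups: a hairpin against Nkx2-1 (shNKX2-1) with 4-OHT or vehicle, and a scrambled hairpin (shScramble) with 4-OHT or vehicle. No line without a floxed gene was included, so effects of 4-OHT or Cre activity cannot be told apart from gene loss, and the labels do not give the time at which RNA was taken.

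EMT is the programme by which epithelial cells loosen their junctions and take on features of mesenchymal cells. Cells that enter it typically lose E-cadherin (Cdh1) and the adhesion molecule Epcam, and gain N-cadherin (Cdh2), the intermediate filament vimentin (Vim) and the matrix protein fibronectin (Fn1). The zinc finger factors Snai1, Snai2, Zeb1 and Zeb2 and the basic helix-loop-helix factor Twist1 drive the change, and the Snail and ZEB proteins bind E-box DNA to repress epithelial genes. In lung adenocarcinoma the programme is associated with loss of differentiation and with spread.

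The DNA element through which Snail and ZEB factors act was located in the promoters of the genes found in the RefSeq promoter table (build GRCm38.p6), each window running from 250 bases before to 50 bases after a start that RefSeq annotates. The table held 1 window each for Epcam, Vim, Snai1 and Twist1 and 4 for Zeb2. The RefSeq start of Vim lies inside the gene span given above, so its window does not cover the bases before that span. Those of 3 genes are shown because they set an epithelial marker beside a mesenchymal marker and an EMT driver, with each E-box match to CAGGTG, searched on both strands, in capitals (a match on the minus strand is printed as the reverse complement). The Epcam window is chr17:87635729-87636028, the Vim window chr2:13574061-13574360 and the Snai1 window chr2:167537945-167538244, all on the plus strand.
Epcam: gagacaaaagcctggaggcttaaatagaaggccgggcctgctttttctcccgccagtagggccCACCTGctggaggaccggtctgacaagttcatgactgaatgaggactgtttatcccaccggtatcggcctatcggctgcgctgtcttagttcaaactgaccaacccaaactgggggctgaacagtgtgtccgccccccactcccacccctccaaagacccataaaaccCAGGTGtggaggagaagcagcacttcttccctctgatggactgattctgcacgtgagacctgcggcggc
Vim: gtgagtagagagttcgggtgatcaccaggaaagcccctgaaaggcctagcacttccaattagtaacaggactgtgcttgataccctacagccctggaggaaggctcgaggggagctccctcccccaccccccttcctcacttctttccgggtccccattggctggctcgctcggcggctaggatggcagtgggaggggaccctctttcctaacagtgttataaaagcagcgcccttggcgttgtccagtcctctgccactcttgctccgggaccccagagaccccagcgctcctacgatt
Snai1: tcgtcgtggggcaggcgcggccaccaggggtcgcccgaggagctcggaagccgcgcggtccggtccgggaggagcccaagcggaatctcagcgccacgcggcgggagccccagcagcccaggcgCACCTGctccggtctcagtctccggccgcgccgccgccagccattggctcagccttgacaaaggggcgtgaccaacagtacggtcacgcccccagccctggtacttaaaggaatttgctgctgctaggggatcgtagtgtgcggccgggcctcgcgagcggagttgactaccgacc
The Epcam window held 2 matches, starting 187 and 19 bases before the RefSeq start, and the Snai1 window held 1, starting 126 bases before it. No match was found in the windows of Vim, Zeb2 or Twist1. Of all 32851 promoters in the table, 20.2% held at least 1 match on either strand. The forkhead core TGTTTAC, searched likewise, which does not overlap the E-box letters, was in none of these genes' windows and in 3.65% of all promoters. A letter match is a description of the window and not a measured binding site.

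Total counts, in units of 1e6, were 18.3 to 32 in double-floxed libraries, 18.5 to 33.2 in single-floxed libraries and 13.6 to 16.3 in hairpin libraries. The mitochondrial share was 11.7% in replicate 2 of shNKX2-1 with 4-OHT and 1.09% to 4.3% elsewhere, so the Vim result of that group is given with and without that library. With 4-OHT, Foxa2 fell in double-floxed organoids (log2 change -4.49), in Foxa2-floxed organoids (-5.11), under shNKX2-1 (-6.04) and under shScramble (-5.09), and Foxa1 fell in double-floxed (-1.80) and Foxa1-floxed organoids (-1.92). In the hairpin experiment Foxa1 did not pass the test with 4-OHT (-0.56 under shNKX2-1 and -0.49 under shScramble), and Nkx2-1 did not pass for shNKX2-1 against shScramble (-0.98 in 4-OHT, adjusted p = 0.0763, and -0.44 in vehicle, adjusted p = 0.755, edgeR). Nkx2-1 itself was at 97.0 to 412 CPM (counts scaled to a library total of 1e6) in all libraries, and Krt8, a keratin of simple epithelia, was at 1164 to 5957 CPM. Of 11 fibroblast markers, Lum was at 0 in all 38 libraries, Col1a2 at 0 in 35 and Dcn at 0 in 32. The summed level of the 11 was lowest at 0.0561 CPM and highest at 5.94 CPM. Of 8 endothelial markers the summed level stayed at or under 9.03 CPM. The 9 leukocyte markers summed to 6.57 to 1746 CPM, mostly from Cd74, which alveolar epithelium also expresses and which reached 1733 CPM. Cd68 was at 2.52 to 46.9 CPM, Lyz2 reached 46.1 CPM and Csf1r 27.4 CPM, while Ptprc was at or under 3.04 CPM and Adgre1 was at 0 in 36 libraries.

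The 10 genes fell into 3 tiers when levels were set per kilobase of exon, the scale on which genes can be compared. Cdh1 had a median of 227 CPM per kilobase over the 38 libraries, Epcam 196 and Fn1 43.4, and these 3 were detected at high counts in every library. Vim had a median of 0.598 CPM per kilobase with a range of 0.0140 to 42.7, the widest in fold terms of the genes with a count in every library. The other 6 genes lay at or under 1.06 CPM per kilobase in all libraries. Fn1 and Vim are mesenchymal markers, and the highest Fn1 value (148 CPM per kilobase) lay under the lowest Cdh1 value (162 CPM per kilobase). The ranges of Cdh1 and Epcam overlapped, as did those of the 6 low genes.

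**Figure D1:**
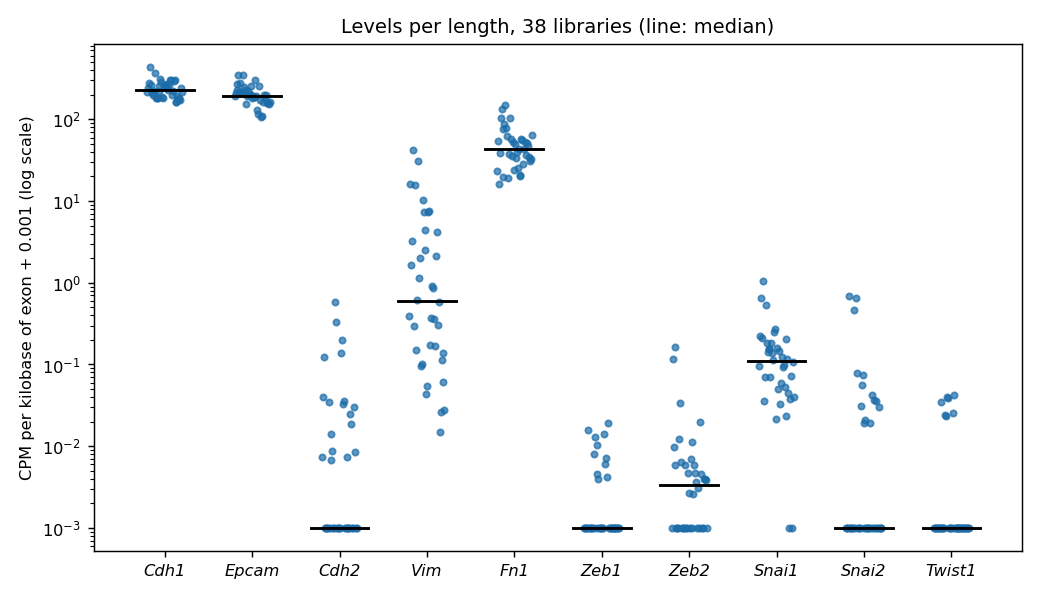
Level of each gene per kilobase of exon (CPM per kilobase plus 0.001, log axis), 1 point per library (38 libraries) with a line at the median. Cdh1 and Epcam sit at the top with Fn1 below them, Vim spans the widest range above 0, and the other 6 genes lie near 0.

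Of the epithelial markers, Cdh1, the cadherin of adherens junctions, ran from 739 to 2002 CPM and was not called in any of the 11 comparisons (edgeR quasi-likelihood test, Benjamini-Hochberg adjustment over all genes tested). In double-floxed organoids it was at 1001, 1113, 1273, 2002 and 1215 CPM with 4-OHT, against 956, 904, 1015, 1690 and 836 CPM with vehicle, in replicates 1 to 5. The groups overlapped, and in all 5 pairs of the same line and run the 4-OHT library was higher, as it was in 14.7% of all genes tested. Run here means the number that opens a library's title, not a labelled sequencing batch. The fitted log2 change was 0.29 (SE 0.23, adjusted p = 0.540). Line 1027B replicate 4 stood apart in both treatments.

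Single-floxed organoids had Cdh1 in the same range. In Foxa1-floxed organoids the lowest, median and highest values were 831, 1101 and 1445 CPM with 4-OHT, against 826, 1184 and 1257 CPM with vehicle, with a log2 change of 0.01 (SE 0.08, adjusted p = 0.972). Foxa2-floxed organoids had 1056, 1207, 1378 and 1405 CPM with 4-OHT, against 915, 1006, 1341 and 1385 CPM with vehicle, and the log2 change was 0.12 (SE 0.09, adjusted p = 0.672). Both pairs of groups overlapped. Ordered by mean, the 6 groups without a hairpin ran from a highest of 1321 ± 395 CPM (SD, n = 5) in double-floxed 4-OHT down to 1080 ± 347 CPM (SD, n = 5) in double-floxed vehicle, and each group lay within the spread of its neighbours.

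Epcam, an adhesion molecule of epithelial cells, was at 426, 468, 590, 500 and 774 CPM with 4-OHT in double-floxed organoids, against 478, 609, 471, 465.7 and 762 CPM with vehicle, so that the groups overlapped almost fully. The log2 change was -0.01 (SE 0.18, adjusted p = 0.980). In Foxa1-floxed organoids the lowest, median and highest values were 336, 462 and 541 CPM with 4-OHT, against 405, 417 and 557 CPM with vehicle (log2 change 0.03, SE 0.12, adjusted p = 0.949). Foxa2-floxed line 1267B had 667 and 419 CPM with 4-OHT, against 569 and 376 CPM with vehicle, and line 1526C had 285 and 257 CPM with 4-OHT, against 238 and 239 CPM with vehicle. Line 1526C was lower than 1267B in every library, and both lines were slightly higher with 4-OHT (log2 change 0.18, SE 0.15, adjusted p = 0.682). Lines accounted for 79.3% of the variance of Epcam log2 CPM over the 30 libraries without a hairpin, against a median of 68.1% over 10527 expressed genes.

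**Figure D2:**
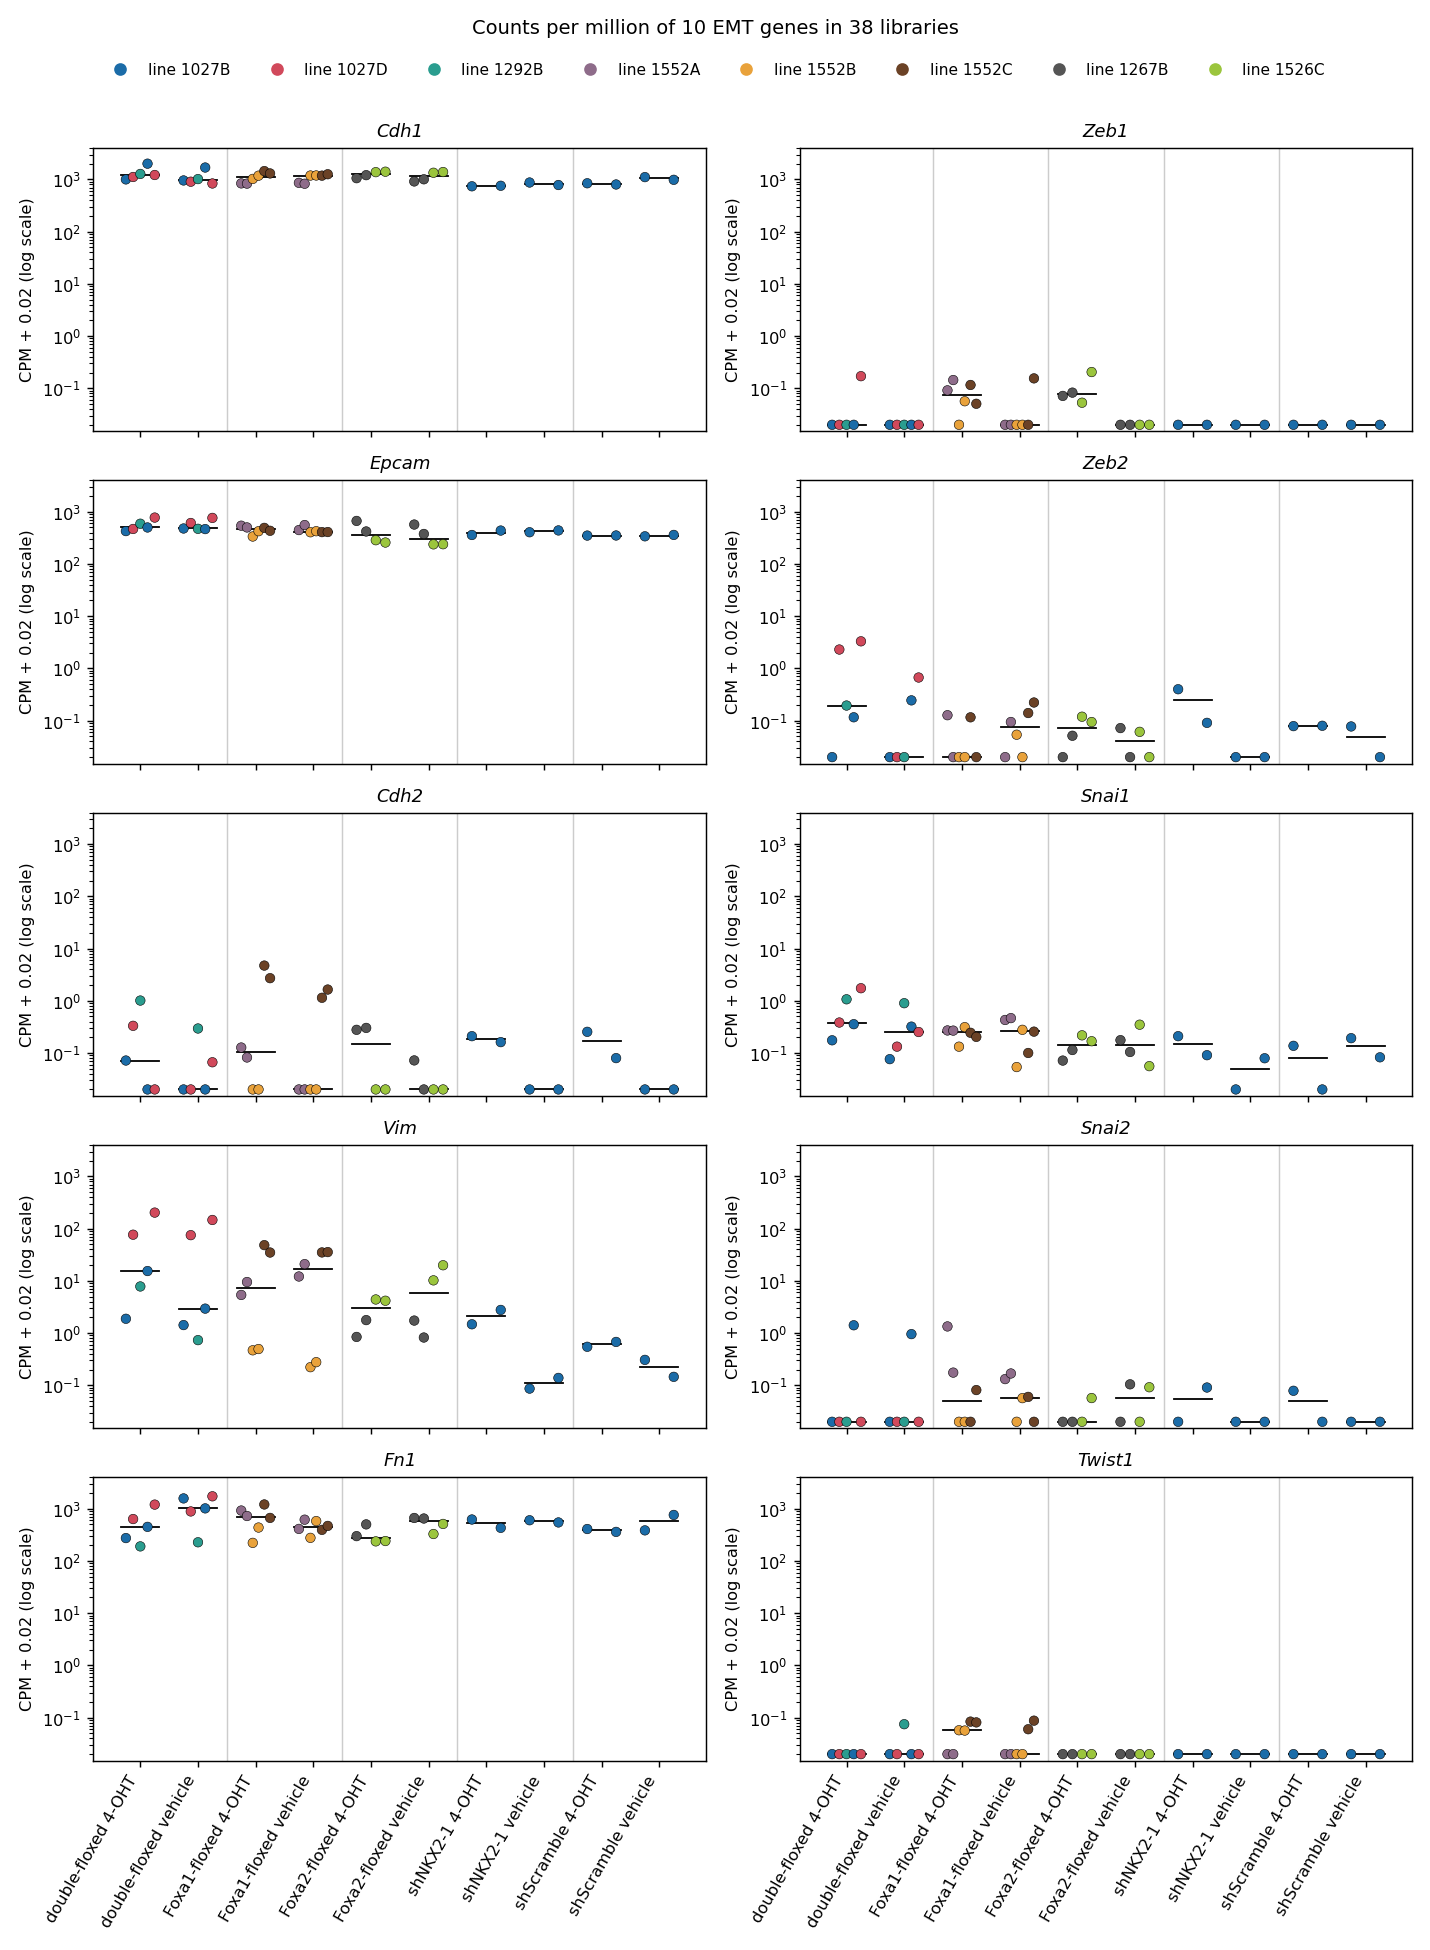
CPM plus 0.02 (log axis) of each gene in each library, with groups along the horizontal axis (4-OHT left of vehicle), colour for the organoid line and a bar at the group median. Cdh1, Epcam and Fn1 are high in all groups, Vim separates by line, and the transcription factors lie near 0 apart from Zeb2 in line 1027D, Snai1 in lines 1027D and 1292B and Snai2 in a few libraries.

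Fibronectin (Fn1), a matrix glycoprotein, was the most abundant mesenchymal marker per length, at 190 to 1732 CPM. In double-floxed organoids it was at 275, 635, 190, 450 and 1200 CPM with 4-OHT, against 1578, 888, 228, 1017 and 1732 CPM with vehicle, in replicates 1 to 5. The 4-OHT library was lower in all 5 pairs of the same line and run, as it was in 12.1% of all genes tested, while the groups overlapped, with line 1292B low and 1027D high in both. Per line, the log2 ratio of summed counts was -1.76 in 1027B, -0.44 in 1027D and -0.26 in 1292B. The fitted log2 change was -1.0 (SE 0.37) and did not pass the test (adjusted p = 0.168).

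With only 1 of the 2 genes floxed, Fn1 gave different values by line. Foxa1-floxed organoids had 222, 697 and 1208 CPM as lowest, median and highest with 4-OHT, against 277, 440 and 618 CPM with vehicle. The ratio was above 1 in lines 1552A (log2 0.67) and 1552C (1.10) and below 1 in 1552B (-0.35), and the fitted log2 change was 0.47 (SE 0.27, adjusted p = 0.517). Foxa2-floxed organoids had 299, 502, 237 and 241 CPM with 4-OHT, against 666, 650, 328 and 512 CPM with vehicle. Both lines were lower with 4-OHT (log2 -0.63 in 1267B and -0.83 in 1526C), the groups overlapped, and the fitted log2 change was -0.78 (SE 0.32, adjusted p = 0.248). Ordered by mean, Fn1 ran from 320 ± 125 CPM (SD, n = 4) in Foxa2-floxed 4-OHT to 1089 ± 600 CPM (SD, n = 5) in double-floxed vehicle, with overlapping ranges between neighbours among the 6 groups without a hairpin.

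Vimentin (Vim), the intermediate filament protein of mesenchymal cells, varied mainly between lines, which held 90.0% of its log2 CPM variance over the 30 libraries. Line 1027D was highest, with 76.5 and 203 CPM with 4-OHT, against 75.01 and 147 CPM with vehicle. Line 1552C followed with 48.3 and 34.9 CPM with 4-OHT, against 35.0 and 35.5 CPM with vehicle. Line 1552B was lowest of the non-hairpin lines, with 0.448 and 0.475 CPM with 4-OHT, against 0.202 and 0.257 CPM with vehicle. In the 4 libraries of 1027D the fibroblast markers summed to 2.59 to 5.94 CPM, of which Pdgfra made 1.21 to 3.85 CPM and Col3a1 at most 0.0927 CPM. In line 1552C they summed to 1.12 and 1.16 CPM with 4-OHT, against 0.360 and 0.270 CPM with vehicle. Their part in the Vim level was not tested. In bulk RNA, a larger number of Vim-positive cells and more Vim RNA per cell cannot be told apart.

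Vim was higher with 4-OHT in all 5 double-floxed pairs, as were 14.7% of all genes tested, though unevenly. Line 1027B had 1.86 and 15.4 CPM with 4-OHT, against 1.40 and 2.92 CPM with vehicle, and line 1292B had 7.79 CPM with 4-OHT, against 0.713 CPM with vehicle. Per line the log2 ratio was 1.94 in 1027B, 0.45 in 1027D and 3.45 in 1292B, and the groups overlapped across lines. The fitted log2 change of 1.49 (SE 0.69) did not pass the test (adjusted p = 0.273). The summed leukocyte markers were also higher with 4-OHT in all 5 pairs, at 1746, 25.2, 312, 462 and 73.6 CPM with 4-OHT, against 695, 8.96, 39.1, 94.1 and 58.3 CPM with vehicle, in replicates 1 to 5. Cd74 made most of the sums in replicates 1, 3 and 4, at 1733, 257 and 437 CPM with 4-OHT, against 643, 28.7 and 81.1 CPM with vehicle. Single markers did not all rise. Lyz2 was lower with 4-OHT in replicates 1, 2 and 5 and higher in replicates 3 and 4. Ptprc was lower in replicate 1 and higher in the others. The part of the leukocyte markers in the Vim values was not tested.

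Single-floxed lines did not share a direction for Vim. Line 1552A had 5.35 and 9.48 CPM with 4-OHT, against 12.1 and 20.9 CPM with vehicle, and the Foxa1-floxed log2 change was -0.20 (SE 0.38, adjusted p = 0.884). Line 1526C had 4.38 and 4.14 CPM with 4-OHT, against 10.2 and 19.9 CPM with vehicle, a log2 ratio of -1.85. Line 1267B had 0.823 and 1.75 CPM with 4-OHT, against 1.72 and 0.802 CPM with vehicle, a log2 ratio of 0.21. The Foxa2-floxed log2 change was -1.02 (SE 0.46, adjusted p = 0.310). Without line 1267B it was -1.85 with an adjusted p of 0.0346 (edgeR), in a fit that called 639 genes higher and 420 lower of 16818. Line 1526C alone is left there for the genotype, so that value rests on libraries of 1 tumour.

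**Figure D3:**
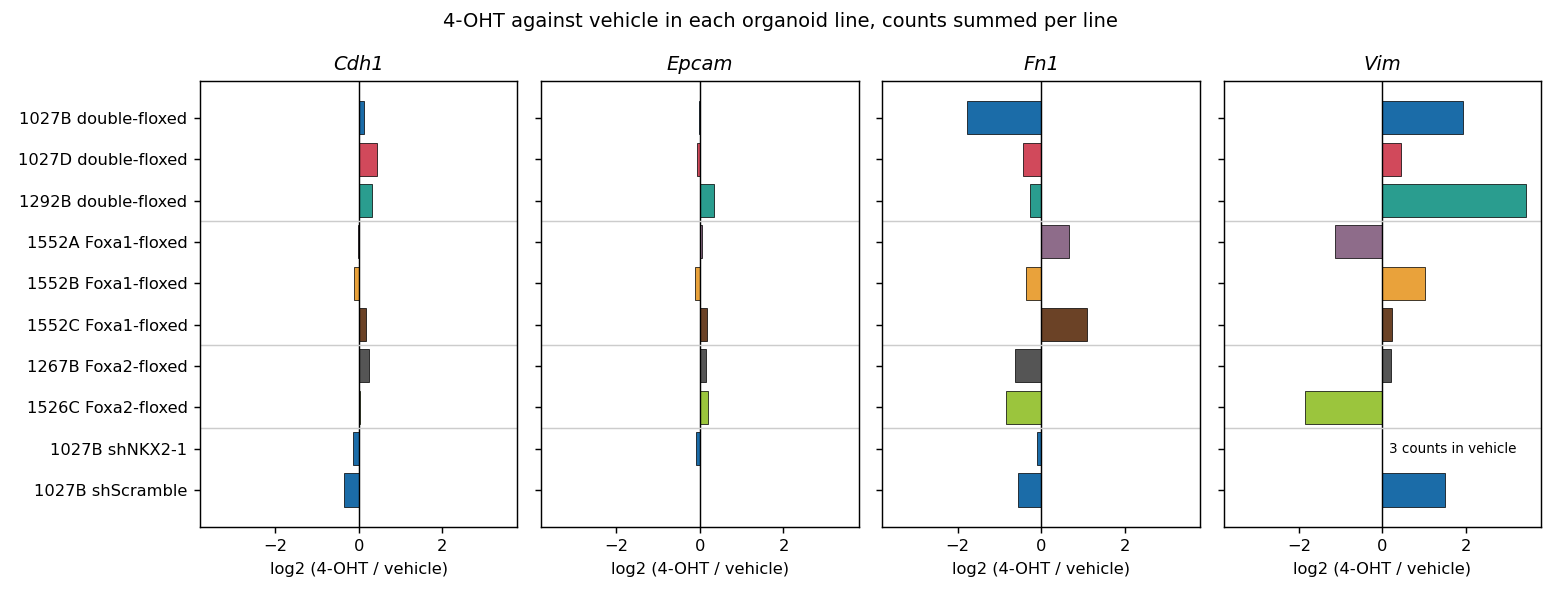
Log2 ratio of 4-OHT to vehicle for Cdh1, Epcam, Fn1 and Vim in each line, from counts summed per line and scaled by library size, with double-floxed lines on top, then Foxa1-floxed, Foxa2-floxed and the hairpin experiment in 1027B. Fn1 bars point left and Vim bars right in all 3 double-floxed lines, Cdh1 and Epcam bars are short, and no Vim bar is drawn for shNKX2-1 because its vehicle libraries held 3 counts in all.

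N-cadherin (Cdh2), the cadherin that replaces E-cadherin in a full EMT, was at 0 in 20 of 38 libraries. Line 1552C held most of its counts, with 4.69 and 2.69 CPM with 4-OHT, against 1.12 and 1.62 CPM with vehicle. The other Foxa1-floxed lines had 5 counts with 4-OHT and 0 with vehicle together. The Foxa1-floxed log2 change was 1.59 (SE 0.48) and missed the threshold after adjustment (adjusted p = 0.267). In Foxa2-floxed organoids 14 counts with 4-OHT stood against 1 with vehicle, all in line 1267B, a ratio of 12.2 (95% counting interval 1.86 to 518), and the fitted change had an adjusted p of 0.140. Line 1292B had 0.988 CPM with 4-OHT (17 counts), against 0.274 CPM with vehicle (5 counts).

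Among the EMT transcription factors, Zeb2, a repressor of epithelial genes, was seen above 1 CPM only in 1027D with 4-OHT. That line had 2.28 and 3.28 CPM with 4-OHT, against 0 and 0.649 CPM with vehicle, or 153 against 14 counts (log2 ratio 3.04). The same line was highest for Vim. Over the 3 double-floxed lines the log2 change of Zeb2 was 1.77 (SE 1.30, adjusted p = 0.511).

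Snai1, the factor that represses Cdh1 early in the programme, was at or under 1.72 CPM. It was at 0.155, 0.363, 1.05, 0.336 and 1.72 CPM with 4-OHT in double-floxed organoids, against 0.0561, 0.112, 0.877, 0.299 and 0.232 CPM with vehicle. The 4-OHT library was higher in all 5 pairs, as it was in 14.7% of all genes tested, and the groups overlapped. Counts were 3, 7, 18, 7 and 57 with 4-OHT, against 1, 2, 16, 8 and 5 with vehicle, in replicates 1 to 5. In replicate 4 the count was lower with 4-OHT, and scaling to library size put its CPM higher. Line 1027D held the largest ratio, with 64 counts with 4-OHT against 7 with vehicle (log2 ratio 2.78), while the log2 ratio was 0.30 in line 1027B and 0.25 in 1292B. The fitted log2 change was 1.21 (SE 0.71, adjusted p = 0.392). In single-floxed organoids Snai1 stayed at or under 0.445 CPM, with a median of 0.236 CPM with 4-OHT against 0.247 CPM with vehicle in Foxa1-floxed organoids, and of 0.121 CPM against 0.120 CPM in Foxa2-floxed organoids.

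Snai2 (also called Slug) was at 0 in 24 libraries and rested on a few. Line 1027B replicate 4 had 1.39 CPM with 4-OHT (29 counts) and 0.935 CPM with vehicle (25 counts), while replicate 1 of the same line had 0 in both treatments. Line 1552A replicate 1 had 1.32 CPM with 4-OHT (37 counts). The 1027B replicate 4 libraries also stood apart for Cdh1.

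Zeb1, the close relative of Zeb2, had 29 counts in all 38 libraries together. In Foxa2-floxed organoids it had 9 counts over the 4 libraries with 4-OHT, each above 0, against 0 in the 4 with vehicle. The ratio was 2.62 with 3 counts put in place of the 0, which leaves out the counting error of the 9 counts. In Foxa1-floxed organoids Zeb1 had 11 counts with 4-OHT, spread over 5 of 6 libraries, against 4 with vehicle, all in 1 library. Twist1, a mesodermal factor, had 10 counts in all, 9 of them in Foxa1-floxed libraries. At this depth a change in Zeb1 or Twist1 was not detectable by the fitted test, which left both out for low counts.

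In count of calls, none of the 7 genes tested in double-floxed organoids passed an adjusted p of 0.05, where 3.90% of 15198 genes did. At an unadjusted p under 0.05 there was 1 of 7 (Fn1), against 20.3% of all genes. In Foxa1-floxed organoids none of 5 passed, where 0.0118% of 16887 genes did, and 1 (Cdh2) had an unadjusted p under 0.05, against 11.4%. In Foxa2-floxed organoids none of 5 passed, where 3.43% did, and 3 (Cdh2, Vim and Fn1) had an unadjusted p under 0.05, against 14.2%. DESeq2 called none of the 10 in any of these comparisons.

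Differences between genotypes were tested on counts summed per line (8 lines), with 8 of the 10 genes passing the low-count filter and none called by edgeR or DESeq2. The 4-OHT effect in double-floxed minus Foxa1-floxed organoids was called for 1.54% of 19085 genes, and Fn1 alone of the 8 had an unadjusted p under 0.05, against 17.8% of all genes. The Fn1 effect differed by -1.33 on the log2 scale (SE 0.47, adjusted p = 0.192), and that of Vim by 1.82 (SE 0.85, adjusted p = 0.311). Double-floxed minus Foxa2-floxed effects were called for 0.194% of genes. There Vim alone had an unadjusted p under 0.05, against 8.91% of genes (2.63, SE 0.95, adjusted p = 0.461), and Fn1 differed by -0.11 (SE 0.51). Foxa2-floxed minus Foxa1-floxed effects were called for 0% of genes, with 3.84% at an unadjusted p under 0.05, among them Fn1 (-1.22, SE 0.51, adjusted p = 1).

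Under the hairpins, 4 of the 10 genes (Cdh1, Epcam, Vim and Fn1) passed the low-count filter. Vim was at 1.45 and 2.75 CPM in shNKX2-1 with 4-OHT, against 0.0664 and 0.118 CPM in shNKX2-1 with vehicle. In shScramble it was at 0.526 and 0.656 CPM with 4-OHT, against 0.287 and 0.125 CPM with vehicle. Neither pair of groups overlapped, and 4-OHT libraries were likewise both above their vehicle libraries in 23.7% of all genes under shNKX2-1 and 30.7% under shScramble. All 8 values lay under those of line 1027D by more than a factor of 10. The hairpin line itself, 1027B, without a hairpin and in other runs, had 1.86 and 15.4 CPM with 4-OHT, against 1.40 and 2.92 CPM with vehicle. The shNKX2-1 values with 4-OHT lay within that vehicle range, and the vehicle values of both hairpins lay under it. Vim stayed a low-count gene here, with 62 counts in shNKX2-1 with 4-OHT against 3 with vehicle.

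Vim was the single call among the 10 genes in any comparison. With 4-OHT under shNKX2-1 it rose by a log2 change of 4.44 (SE 0.76, adjusted p = 0.0140), a ratio of 22.0 on summed counts with a 95% counting interval of 7.19 to 110. That made 1 of 4 genes tested, where 6.35% of 14465 genes were called in either direction and 2.72% higher, and 24.7% had an unadjusted p under 0.05. The call was lost without vehicle replicate 1 (adjusted p = 0.141), without vehicle replicate 2 (adjusted p = 0.125) and when only these 2 groups were fitted (adjusted p = 0.0558), and over its 12 alternatives the adjusted p ran from 3.98e-05 to 0.141. Without the 4-OHT library of high mitochondrial share the log2 change was 3.84 with an adjusted p of 0.0344, in a fit that, like those without 1 vehicle library, leaves 1 library in a group and takes the spread from the other groups. Fibroblast markers summed to 0.569 and 0.212 CPM in shNKX2-1 with 4-OHT, against 1.39 and 0.651 CPM with vehicle. Leukocyte markers summed to 171 and 96.5 CPM in shNKX2-1 with 4-OHT, against 36.4 and 91.3 CPM with vehicle, with no overlap. Cd74 made most of each sum, at 161 and 88.7 CPM with 4-OHT, against 28.9 and 74.1 CPM with vehicle. Lyz2 was at 0 in both 4-OHT libraries, against 0.332 and 3.61 CPM with vehicle, and Ptprc overlapped. The sums did not overlap in shScramble either, at 172 and 138 CPM with 4-OHT, against 29.1 and 56.3 CPM with vehicle. The part of fibroblast or leukocyte markers in the Vim result was not tested.

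The other hairpin contrasts of Vim did not pass. With 4-OHT under shScramble the log2 change was 1.49 (SE 0.71, adjusted p = 0.381), where 4.33% of genes were called, and none of the 4 had an unadjusted p under 0.05, against 15.2% of all genes. For shNKX2-1 against shScramble in 4-OHT it was 1.89 (SE 0.60, adjusted p = 0.204), where 1.58% of genes were called, and Vim alone of the 4 had an unadjusted p under 0.05, against 13.9%. In vehicle it was -1.06 (SE 0.92, adjusted p = 1) on 3 counts against 7, where 0.235% were called, and none of the 4 reached an unadjusted p under 0.05, against 7.76%. The test of whether the hairpin changed the 4-OHT effect gave 2.95 (SE 1.10, adjusted p = 0.849), with 0% of genes called and 5.41% at an unadjusted p under 0.05. DESeq2 called Vim with 4-OHT under shNKX2-1 and none of the 10 in the other 4 hairpin contrasts.

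Cdh1 was at 739 and 756 CPM in shNKX2-1 with 4-OHT, against 873 and 781 CPM with vehicle (log2 change -0.10, SE 0.22, adjusted p = 0.783). In shScramble it was at 844 and 800 CPM with 4-OHT, against 1107 and 983 CPM with vehicle (-0.33, SE 0.22, adjusted p = 0.571). The 4-OHT libraries lay below the vehicle libraries of the same hairpin, as they did in 27.1% of all genes under shNKX2-1 and 29.8% under shScramble, while in 1027B without a hairpin the 4-OHT library was the higher one in both pairs. Epcam was at 359 and 436 CPM in shNKX2-1 with 4-OHT, against 405 and 439 CPM with vehicle, and at 350 and 351 CPM in shScramble with 4-OHT, against 339 and 360 CPM with vehicle. Fn1 was at 623 and 431 CPM in shNKX2-1 with 4-OHT, against 603 and 547 CPM with vehicle, and at 409 and 360 CPM in shScramble with 4-OHT, against 386 and 761 CPM with vehicle. For both genes the 4-OHT and vehicle groups of the same hairpin overlapped. With 4-OHT the log2 change of Fn1 was -0.09 (SE 0.34, adjusted p = 0.876, edgeR) under shNKX2-1 and -0.57 (SE 0.35, adjusted p = 0.520) under shScramble. Cdh2 had 5 counts with 4-OHT against 0 with vehicle under each hairpin. With 3 counts put in place of the 0, the ratio was 1.78 under shNKX2-1 and 1.65 under shScramble. These ratios leave out the counting error of the 5 counts, so they are not lower limits. Zeb2 had 7 counts in shNKX2-1 with 4-OHT against 0 with vehicle, a ratio of 2.49 reckoned likewise, and 2 counts against 1 in shScramble. These 2 genes were not fitted here.

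**Figure D4:**
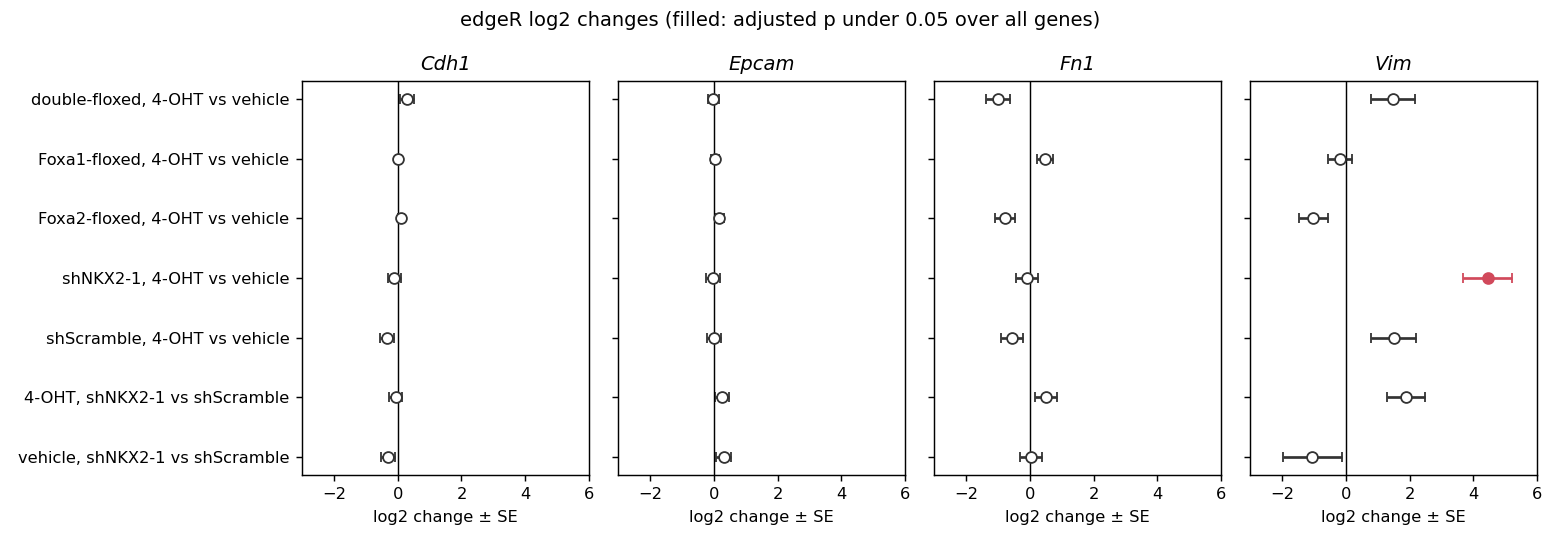
Fitted log2 change with its SE (edgeR) for Cdh1, Epcam, Fn1 and Vim in 7 contrasts, filled where the adjusted p over all genes was under 0.05. The filled point is Vim with 4-OHT under shNKX2-1 (4.44), and the intervals of Cdh1 and Epcam lie within about 1 log2 unit of 0.

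Wider gene lists of the same programme gave few calls, all of them higher with 4-OHT in double-floxed organoids, where 3.90% of all genes tested were called and 1.99% were called higher. Of 28 other epithelial genes, all tested, 2 rose with 4-OHT in double-floxed organoids, both of the desmosome. Jup (plakoglobin) was at 634 ± 238 CPM with 4-OHT, against 330 ± 136 CPM with vehicle (SD, n = 5 each, log2 change 0.98, adjusted p = 0.0234, edgeR). Dsp (desmoplakin) was at 615 ± 175 CPM with 4-OHT, against 339 ± 62.0 CPM with vehicle (0.82, adjusted p = 0.0412). Of 24 other mesenchymal genes, 16 were tested and 3 rose. The matrix protein Fbln2 was at 704 ± 221 CPM with 4-OHT, against 80.6 ± 50.5 CPM with vehicle (log2 change 3.19, SE 0.47). S100a4 was at 29.4 ± 37.3 CPM with 4-OHT, against 1.92 ± 1.20 CPM with vehicle (3.40, SE 0.59), and Lgals1, a galectin, rose by 1.40 (SE 0.31). Ltbp1, which stores latent TGF-beta in the matrix, rose to 8.65 ± 7.42 CPM with 4-OHT, against 0.981 ± 0.420 CPM with vehicle, the single call among 20 genes of the TGF-beta pathway, and none of 11 other EMT transcription factors tested was called. The median log2 change was 0.28 for the epithelial list and 0.37 for the mesenchymal list, against 0.02 for all genes. Without line 1027D the fit called 0 genes in all, so none of these calls held there, while it called 42 genes higher and 69 lower without 1027B, and 114 higher and 139 lower without 1292B, in place of 302 and 290.

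In Foxa2-floxed organoids 3.43% of all genes tested were called. Esrp1, an epithelial splicing factor among the 28 tested genes of the epithelial list, fell there (log2 change -0.31). Of 19 mesenchymal genes tested, Fbln2 (3.72) and S100a4 (1.54) rose, and the membrane metalloprotease Mmp14 fell, at 0.506 ± 0.584 CPM with 4-OHT, against 3.93 ± 4.39 CPM with vehicle (-3.02, SE 0.27, adjusted p = 8.77e-06, edgeR). In Foxa1-floxed organoids no gene of the epithelial, mesenchymal, transcription factor or TGF-beta lists was called, where the edgeR fit called 2 genes in all. The double-floxed effect was larger than the Foxa1-floxed effect for Krt18 (difference 0.73), Krt8 (0.95) and S100a4 (3.31), where 1.54% of all genes tested were called. The leukocyte receptor gene Csf1r also rose with 4-OHT in double-floxed (4.49) and Foxa2-floxed organoids (2.37), at 9.03 ± 10.9 CPM with 4-OHT, against 0.461 ± 0.641 CPM with vehicle in the double-floxed ones. It was the 1 call among 6 leukocyte markers tested in double-floxed organoids, with Itgam (2.22) a further call in Foxa2-floxed ones. Most fibroblast and endothelial markers were left out for low counts. Tested were 2 of 11 and 3 of 8 in double-floxed organoids, and 3 of 11 and 3 of 8 in Foxa2-floxed ones, and none of these was called. The part of the leukocyte, fibroblast and endothelial markers in the other changes was not tested. Without line 1526C the Foxa2-floxed fit called 4 genes higher and 12 lower in all, in place of 319 and 261.

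Of these lists, 28 epithelial, 12 mesenchymal and 19 TGF-beta genes were tested under the hairpins. Of all genes tested, 6.35% were called with 4-OHT under shNKX2-1 and 4.33% under shScramble. For shNKX2-1 against shScramble 1.58% were called in 4-OHT. Fbln2 rose with 4-OHT (log2 change 3.19 under shNKX2-1 and 4.10 under shScramble), as did the tight junction gene Cldn3 (5.04 and 7.82 in the same order). The epithelial splicing factor Esrp2 fell (-1.18 and -1.13). The proteoglycan gene Bgn fell with 4-OHT (-1.54 under shNKX2-1 and -3.95 under shScramble). Lgals1 (1.20) rose and the receptor kinase Axl (-3.03) and the ligand Tgfb2 (-0.99) fell under shNKX2-1. In 4-OHT, shNKX2-1 libraries were lower than shScramble libraries for Krt19 (-1.33) and Sparc (-1.80) and higher for Bgn (3.27) and Tgfb3 (1.66). In vehicle, no listed gene was called for shNKX2-1 against shScramble, and none of the 9 other EMT transcription factors tested was called in any hairpin contrast.

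Likeness of pattern was measured as Pearson r of log2 CPM over the 30 libraries without a hairpin, each centred on its line's mean, against 10523 expressed genes, as a description. These libraries share lines and runs. For Cdh1 the most alike genes were Rhob (r = 0.900), Klf6 (0.881) and Cldn4 (0.875), and for Epcam they were Ttc9 (0.770), Zdhhc13 (0.719) and Cdk17 (0.715). Vim was most like Zswim4 (0.884), Sdc4 (0.827) and Ralgds (0.811), and Fn1 most like Ptk7 (0.799), Ltbp4 (0.775) and Fbxo6 (0.758). Snai2, with its counts in few libraries, was nearest to Ccn1 (0.845), Egfr (0.817) and Srgap1 (0.816). The other 5 genes had no r above 0.778 and few counts to rest on.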

How the data were processed

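RNA-seq counts per Ensembl gene were deposited for 38 libraries in 3 tables. The deposited values are raw counts with no normalisation, as whole numbers with differing totals show. Per the submitters' processing notes, the tools were STAR 2.7.6a, featureCounts 1.5.1 and DESeq2 on GRCm38, with no step named, and per the labels' protocols the library kit was directional. The sources used here give neither the strand setting nor the annotation release. Symbols, exon lengths and positions came from GENCODE M21 on GRCm38.

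Groups came from the labelled genotype, treatment and hairpin. Pairing comes from the line: each line, grown from 1 tumour, gave 4-OHT and vehicle libraries, so line was the replicate block. Several libraries of 1 line stand for 1 tumour only. In fits on single libraries, p-values measure the spread between these libraries, which may be technical. Fits with a line block also take in differences between lines in the 4-OHT effect. Genotype differences, fitted on 1 sum per line and treatment, rest on the spread of the 4-OHT effect between lines. Tests used edgeR 4.0.16 in R 4.3.3 (filterByExpr, TMM, quasi-likelihood F test), with Benjamini-Hochberg adjustment over all genes tested and a threshold of 0.05. Single-floxed genotypes were fitted together, genotype differences used counts summed per line, and the hairpin fit had 4 group means. Fits were tested on simulated data. CPM used TMM factors over all 38 libraries, with a prior count of 2 for log2 CPM. Intervals are exact at 95% and cover counting error only. Where a group held 0 counts, 3 counts took their place, and counting error of the other group was left out. SE is the absolute log2 change over the square root of F.

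The 10 genes, the gene lists and the tests were chosen with earlier results of these data known. Named were all 10 genes, Foxa1, Foxa2 and Nkx2-1, up to 4 called members per list and direction with the smallest adjusted p, the lists of other cell types, and the 3 most alike genes per member. Alternatives were RLE size factors, DESeq2 1.42.0, no low-count filter, other blocks, other sample sets, and leaving out each library or line. An allele shared by all groups and a result on 1 gene of the epithelial list are not reported here.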

Additional observations from a re-analysis of the deposited data

Results flagged for a closer look

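Of 55 groups of 4 to 6 libraries tested for a library far from the others, 12 held one. A chance rate of about 1 in 20 applies to like libraries with continuous values. These groups mix lines, and several flagged ones hold a few counts beside libraries at 0, so the 12 cannot be read as an excess. Cdh1 in line 1027B replicate 4 was at 2002 CPM with 4-OHT, the other libraries of that group lying between 1001 and 1273 CPM, and at 1690 CPM with vehicle, the others lying between 836 and 1015 CPM. Both libraries also stood apart for Snai2, at 1.39 CPM with 4-OHT and 0.935 CPM with vehicle, where all other double-floxed libraries were at 0. Epcam was at 557 CPM in Foxa1-floxed vehicle replicate 2 (line 1552A), the others lying between 405 and 446 CPM.

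The remaining 7 rest on low counts. Snai2 was at 1.32 CPM in Foxa1-floxed 4-OHT replicate 1 (37 counts, line 1552A) and at 0.0370 CPM in Foxa2-floxed 4-OHT replicate 4 (1 count). Zeb1 was at 0.151 CPM in double-floxed 4-OHT replicate 5 (5 counts, line 1027D) and at 0.135 CPM in Foxa1-floxed vehicle replicate 6 (4 counts, line 1552C). Cdh2 was at 0.274 CPM in double-floxed vehicle replicate 3 (5 counts, line 1292B) and at 0.0520 CPM in Foxa2-floxed vehicle replicate 1 (1 count). Twist1 was at 0.0548 CPM in double-floxed vehicle replicate 3 (1 count).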

How the results depend on the processing

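The count of the 10 genes called was within 1.5 times its reported value in 121 recomputed counts and moved in 8. With no low-count filter it was 2 in double-floxed (Vim, Fn1), 2 in Foxa1-floxed (Cdh2, Fn1) and 3 in Foxa2-floxed organoids (Cdh2, Vim, Fn1), in place of 0. Calls over all genes rose as well, to 1321 higher and 1070 lower of 29837 in double-floxed organoids, in place of 302 and 290. In Foxa1-floxed organoids they were 766 and 375 of 32375, in place of 1 and 1. In Foxa2-floxed organoids they were 1091 and 725 of 32375, in place of 319 and 261. The cause was not tested. Leaving out a library or line gave 0 to 1 in Foxa2-floxed organoids (1 without line 1267B), 0 to 1 for shNKX2-1 with 4-OHT, and 0 to 1 for shNKX2-1 against shScramble in 4-OHT (1, Vim at 2.31 with an adjusted p of 0.0203, without shNKX2-1 4-OHT replicate 1). That last fit leaves 1 library in the group, the one with an 11.7% mitochondrial share, assumes that it varies like the other groups, and calls 2702 genes higher and 3056 lower in all, in place of 140 and 88. Fitting only the groups compared gave 0 for shNKX2-1 with 4-OHT, where fewer samples estimate the spread.

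Replicate block: without a block of line, 0 of the 10 genes were called in double-floxed, Foxa1-floxed and Foxa2-floxed organoids, and over all genes the double-floxed calls were 27 higher and 55 lower, in place of 302 higher and 290 lower. A block of line and run gave 979 higher and 804 lower there and again 0 of the 10. No paired analysis was possible for the hairpin groups because their labels carry no pairing.

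Of the single genes' recomputed values, 393 kept direction and side of the threshold, 9 came past it, 3 fell short of it and 18 crossed 0. Fitted log2 changes that crossed 0 did so for values not past the threshold. Left-out libraries or lines gave -0.117 to 0.0971 for Epcam in double-floxed organoids (0.0428 with counts summed per line and a replicate block of line), -0.0329 to 0.0992 for Epcam and -0.0599 to 0.0605 for Cdh1 in Foxa1-floxed organoids, and -0.342 to 0.0949 for Fn1 under shNKX2-1. Vim ran from -0.47 to 0.42 in Foxa1-floxed organoids and from -1.85 to 0.0742 in Foxa2-floxed organoids, and the double-floxed minus Foxa2-floxed Fn1 difference from -0.37 to 0.35. Low counts limit Cdh2 and the 5 transcription factors: 6 of the 10 genes were at or under 5 CPM in every library, and Zeb1 and Twist1 could not be fitted in any filtered table.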
